A study of Mus musculus with 4 samples.

Results

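The enzymes that build the sugar chains of mucins and other glycoproteins were followed across 4 arrays of enriched colon epithelial cells (CECs). Members were all genes whose probe set carried a single symbol beginning with Galnt, C1galt1, Gcnt, B3gnt, B3galt, B4galt, B4galnt, St3gal, St6gal, St8sia or Chst, or Fut followed by a number. The rule used names and no measured value, although it was chosen with earlier results of these data known. It took 90 of the 30176 genes that had a probe set with a single symbol. Of these 90, 88 were protein-coding, against 19050 protein-coding genes on the array, and each member had 1 probe set. The other two were Galnt6os, a noncoding transcript, and Fut4-ps1, a transcribed pseudogene. A further 6 probe sets carried several symbols, at least one of which followed the rule, and they were not analysed here.

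The mice were female BALB/cJ, aged 8 to 10 weeks, and each of the 4 groups was hybridised as 1 array of RNA pooled from several animals. TNBS+I3C mice received 1 mg of 2,4,6-trinitrobenzene sulfonic acid (TNBS), a hapten that provokes colitis, in ethanol by the rectum, and daily intraperitoneal indole-3-carbinol (I3C) at 40 mg/kg up to day 5. TNBS+Vehicle mice received the same TNBS with the DMSO and corn oil that carries I3C. I3C mice received rectal ethanol without TNBS and the same daily I3C, and Vehicle mice received both carriers alone, so that ethanol and the DMSO and corn oil mixture were common to all groups. I3C is a compound of cruciferous vegetables whose products activate the aryl hydrocarbon receptor (AhR), and the comparisons asked how TNBS and I3C altered transcripts of CECs. The labels give a rectal volume of 50 µL in 60% ethanol, whereas the methods of the study give another volume and strength. The cells were enriched through EPCAM and were not pure, and the extraction note in the labels names whole colon tissue instead. The number of mice in each pool was not given. With 1 array per group there was no spread between replicates, so no difference below has a test or an error, and each is a difference between 2 arrays.

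Mucin-type O-glycans begin with an N-acetylgalactosamine (GalNAc) that Galnt enzymes place on serine or threonine. Galactose added by C1galt1 gives core 1, which Gcnt enzymes branch with N-acetylglucosamine (GlcNAc) into core 2, while B3gnt6 makes core 3. The chains are then lengthened by alternating GlcNAc and galactose, and capped by fucose, sialic acid, GalNAc or sulfate. In the colon these chains cover the secreted mucin of goblet cells and the cell-surface glycoproteins of absorptive cells, and they hold water and resist bacterial proteases. Several of the same enzymes also act on N-glycans, on glycolipids and on the selectin ligands of leukocytes.

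Values are the deposited log2 signals, on which a difference of 1 is 2-fold and a difference of 0.585 is 1.5-fold. Signals of different probe sets cannot be ranked as amounts of transcript. As a mark of background, 5.43 was used, the highest over the arrays of the 95th percentile of 1720 probe sets for olfactory and vomeronasal receptors. It is called the receptor level below. Of the 88 coding members, 42 (47.7%) were above it in all 4 arrays, 6 (6.82%) in some and 40 (45.5%) in none, where 8682 of the coding genes (45.6%) were also above it in none. Gcnt1, with a highest value of 5.50, and St3gal4, with 5.52, lay just inside this level. B3galt2, with a highest value of 5.43, and B3gntl1, with 5.40, lay just outside it.

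**Figure D1:**
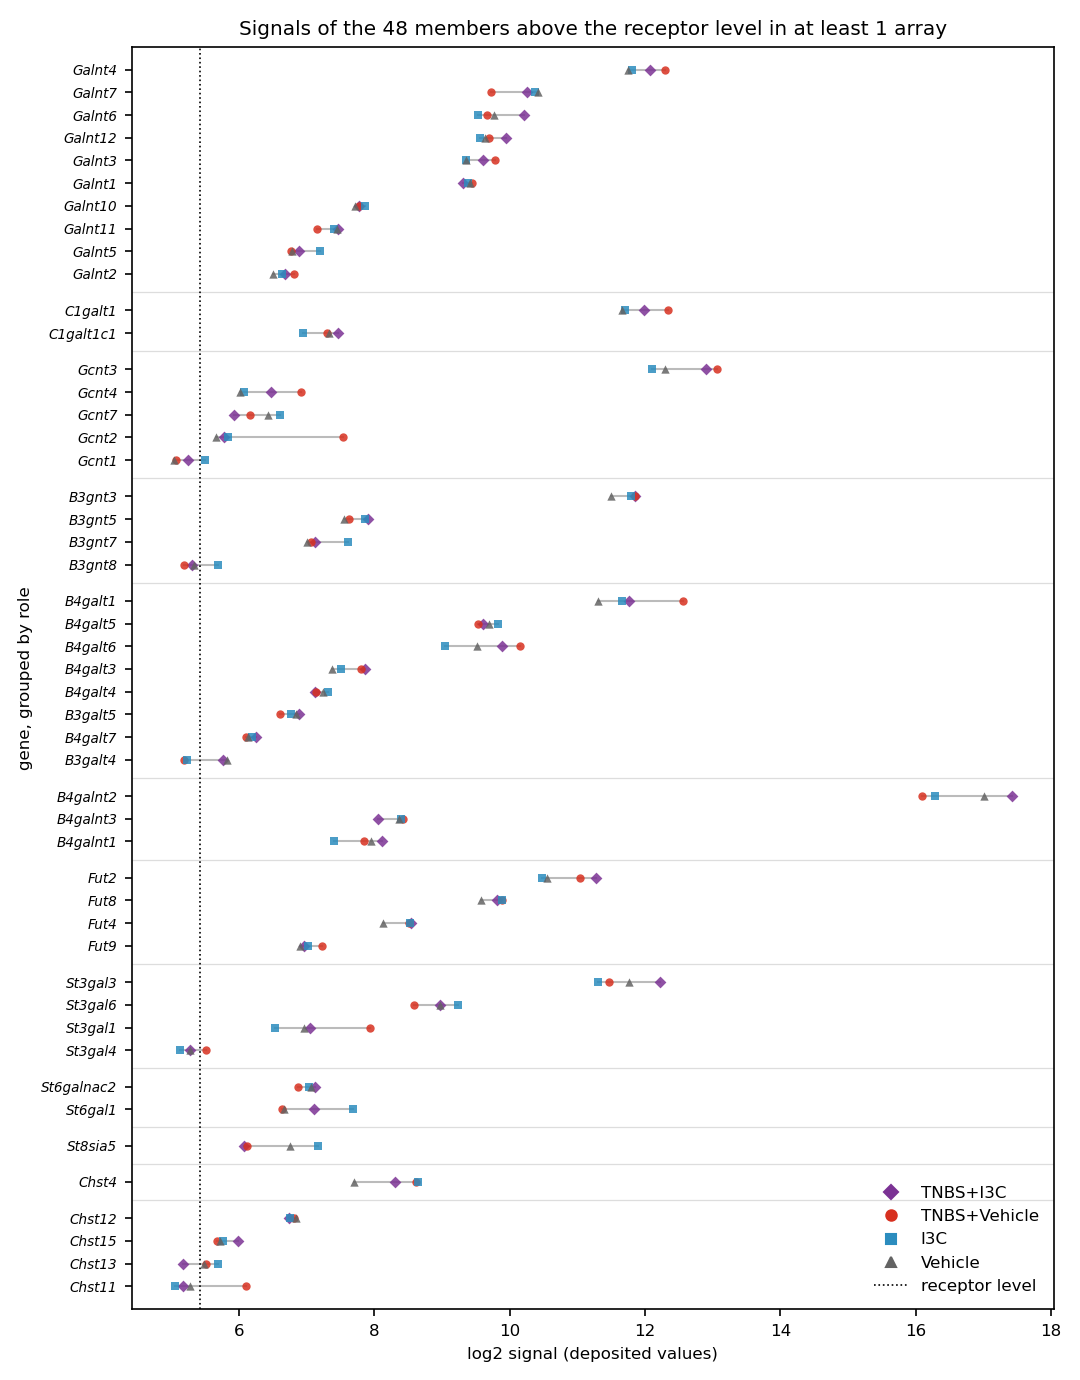
Log2 signal of each of the 48 coding members above the receptor level in at least 1 array, grouped by role from the GalNAc start at the top to the sulfotransferases at the bottom. Each point is 1 array and the grey line joins the lowest and highest; B4galnt2 has signals from 16.10 to 17.42, and Gcnt2 from 5.66 to 7.54.

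The 7 epithelial marker genes were bright in all arrays, with mean log2 signals of 16.37 in TNBS+I3C, 16.21 in TNBS+Vehicle, 15.99 in I3C and 16.14 in Vehicle. The neutrophil list (11 of 11 measured, 10 above the receptor level in at least 1 array) averaged 6.46 in TNBS+I3C, 10.15 in TNBS+Vehicle, 6.10 in I3C and 6.19 in Vehicle. S100a8, Mmp8 and Ngp of that list were above the receptor level in TNBS+Vehicle alone, and Ltf was above it in no array. The goblet list (9 of 10 measured, since the probe set of Muc2 carries several symbols) averaged 13.38 in TNBS+I3C, 12.38 in TNBS+Vehicle, 13.41 in I3C and 12.59 in Vehicle. The proliferation list (5 of 6) averaged 7.55, 8.39, 7.56 and 7.61 in the same order. The absorptive colonocyte list (8 of 8) averaged 16.37, 16.54, 15.97 and 16.09, again in that order. Between TNBS+Vehicle and Vehicle, 2 of its genes were 1.5-fold higher and 1 was lower. Genes of the goblet list went both ways between TNBS+Vehicle and Vehicle, with differences from -3.05 to 1.55 and a median of 0.07. At 1.5-fold, 3 of the goblet genes were higher there and 3 were lower. Of the macrophage, T cell, B and plasma cell, fibroblast and endothelial markers, 2 of 7, 3 of 5, 0 of 4, 4 of 5 and 1 of 4 were above the receptor level in at least 1 array. The part of these lists in the results below was not tested, and in such enriched cells fewer cells of a type and less RNA per cell cannot be told apart.

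**Figure D2:**
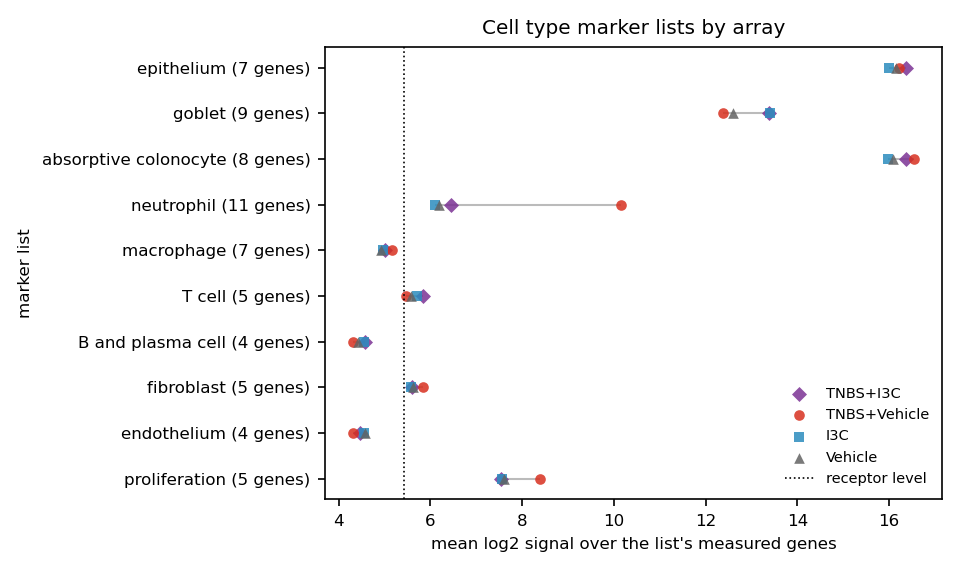
Mean log2 signal of each cell type marker list in each array, with the number of measured genes after the name of the list. The neutrophil list stands at 10.15 in TNBS+Vehicle and between 6.10 and 6.46 in the other arrays.

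The range over the arrays was under 1.5-fold for 66 of 88 members (75.0%), against 82.8% of coding genes, and the median range was 0.35, against 0.31 for coding genes. It was at least 2-fold for 8 members (9.09%), where the share of coding genes was 4.23%. These 8 were Gcnt2 (1.88), St3gal1 (1.40), B4galnt2 (1.32), B4galt1 (1.25), B4galt6 (1.11), St8sia5 (1.09), Chst11 (1.06) and St6gal1 (1.05). They include a branching enzyme, galactosyltransferases, sialyltransferases, a GalNAc transferase and a chondroitin sulfotransferase. Dim members made up much of the narrow ranges, since 39 of the 66 were among the 40 at or below the receptor level in every array. Of the 42 members above it in all arrays, 23 (54.8%) had a range under 1.5-fold, against 78.3% of coding genes above it in all arrays, and 7 (16.7%) had a range of at least 2-fold, against 6.12%.

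**Figure D3:**
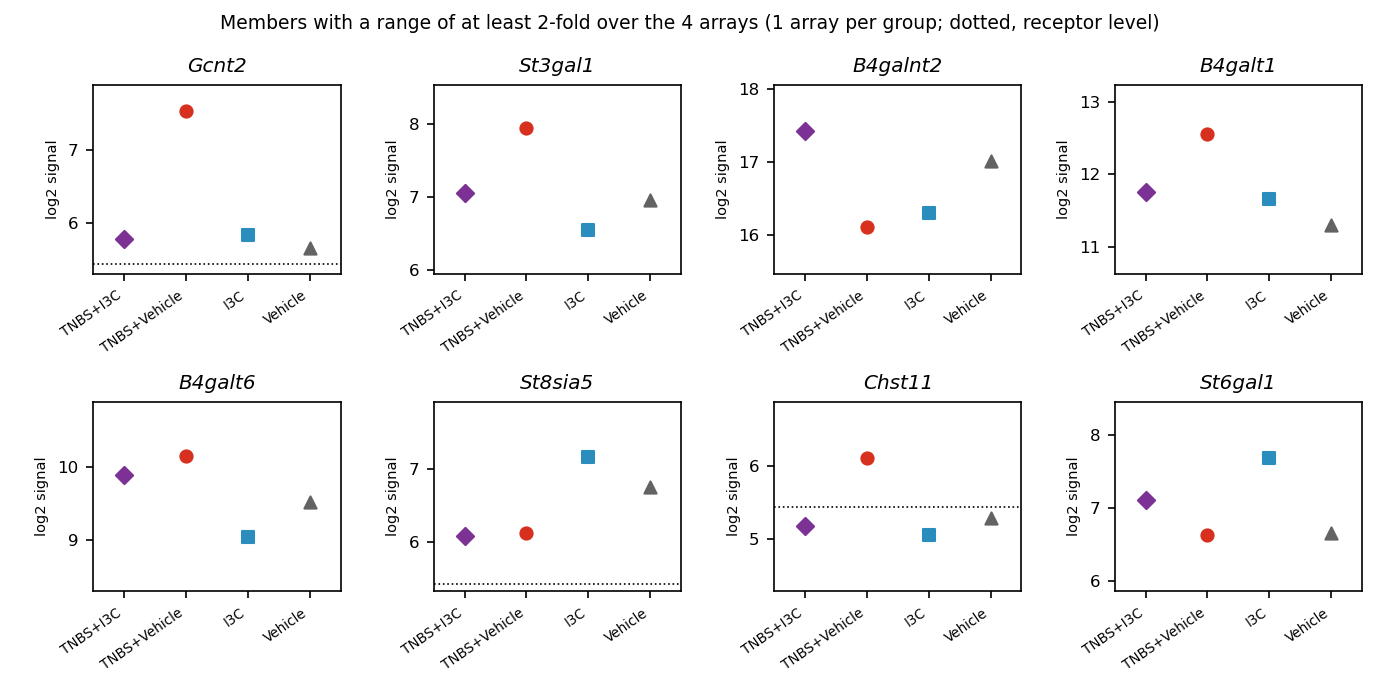
Log2 signal in each array (1 point per array, no replicates) of the 8 members whose range was at least 2-fold, each panel spanning 2.6 log2 units. Gcnt2, St3gal1, B4galt1, B4galt6 and Chst11 have their highest point in TNBS+Vehicle. B4galnt2 and St6gal1 have their lowest there, St6gal1 at 6.63 against 6.66 in Vehicle.

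Between TNBS+Vehicle and Vehicle, 2 members were at least 2-fold higher (2.27%, where the share of coding genes was 1.75%) and none was as much lower (0.535% of coding genes). These 2 were Gcnt2 and B4galt1. At 1.5-fold, 9 members were higher (10.2%, against 6.04% of coding genes) and 4 were lower (4.55%, against 2.7%). The 9 were Gcnt2, B4galt1, St3gal1, Chst4, Gcnt4, Chst11, Gcnt3, C1galt1 and B4galt6, and the 4 were B4galnt2, Galnt7, St8sia5 and B3galt4. The median difference of the 88 members was -0.025, against -0.02 for coding genes, with 37 members higher and 50 lower, whereas after quantile normalization it was 0.008, against 0.026, with 45 higher and 43 lower. St3gal1, with a difference of 0.98, lay just outside 2-fold. After centring each array on its coding median its difference was 1.0, and the count of members at least 2-fold higher became 3.

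Between TNBS+I3C and TNBS+Vehicle, B4galnt2 was the 1 member (1.14%) at least 2-fold higher, against 0.598% of coding genes, and Gcnt2 was the 1 member at least 2-fold lower, against 0.95%. At 1.5-fold, 3 members were higher (3.41%, against 2.63% of coding genes), namely B4galnt2, St3gal3 and B3gnt6, the last at or below the receptor level in every array. Another 4 members were lower (4.55%, against 2.66%), namely Gcnt2, Chst11, St3gal1 and B4galt1. All 4 were among the 9 that were higher in TNBS+Vehicle than in Vehicle, and both comparisons used the same TNBS+Vehicle array. The median difference was 0.05, against 0 for coding genes, with 49 members higher and 37 lower. With quantile normalization the 1.5-fold calls became 5 higher and 4 lower, so that the share of higher calls was 55.6% in place of 42.9%.

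Between I3C and Vehicle, St6gal1 was the 1 member at least 2-fold higher, against 0.22% of coding genes, and no member was as much lower, against 0.115%. At 1.5-fold, St6gal1, Chst4 and B3gnt7 were higher, against 1.26% of coding genes, and B4galnt2 was lower, against 1.25%. The median difference was 0.05, against 0 for coding genes, with 50 members higher and 37 lower. The share of higher calls at 1.5-fold was 75.0%, 60.0% after quantile normalization (3 higher, 2 lower) and 50.0% after centring each array on its coding median (2 higher, 2 lower). St6gal1, with a difference of 1.02, lay just inside 2-fold, and Chst4, with 0.95, just outside.

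Between TNBS+I3C and Vehicle, no member was 2-fold higher or lower, where 0.635% and 0.168% of coding genes were. At 1.5-fold, Fut2, Chst4 and Gcnt3 were higher, a share of 3.41% against 3.74% of coding genes, and St8sia5 was lower, a share of 1.14% against 1.36%. After quantile normalization 1 member was higher and 1 lower, a share of higher calls of 50.0% in place of 75.0%. The median difference was 0.055, against 0 for coding genes, with 52 members higher and 34 lower. It was 0.105 after quantile normalization, against 0.047 for coding genes. With members at background in both arrays left out it was 0.155, for which no coding median under the same filter was taken.

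**Figure D4:**
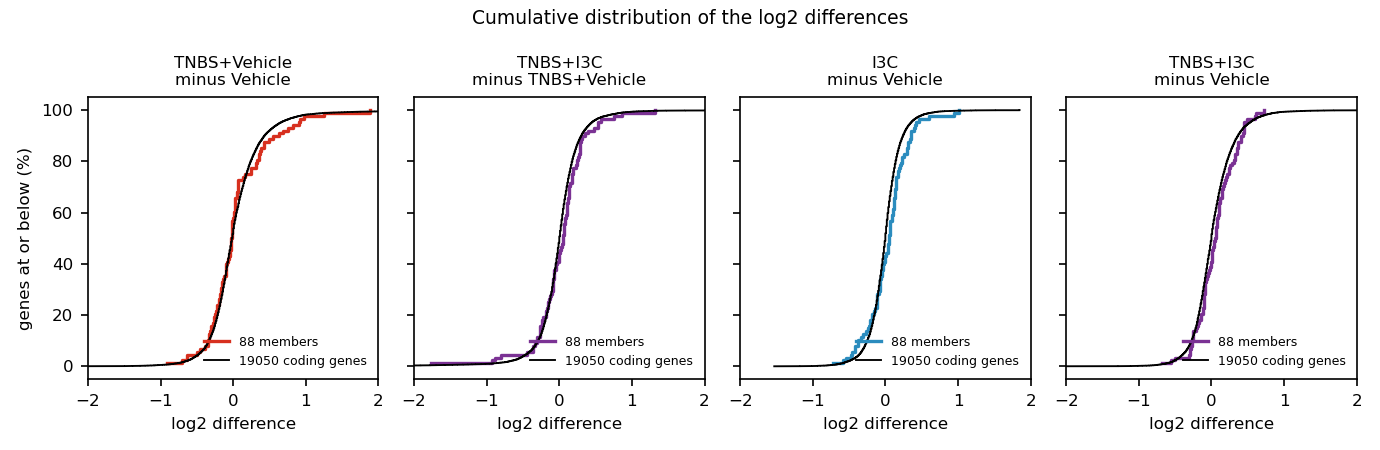
Cumulative share of genes (%) at or below each log2 difference, for the 88 coding members (coloured) and the 19050 coding genes (black), in the 4 comparisons. The member medians are -0.025, 0.05, 0.05 and 0.055 from left to right, and the curves of members and coding genes lie close to each other.

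The promoters of the members past 2-fold in at least 1 comparison are shown because AhR, with its partner ARNT, binds DNA through the letters GCGTG. Each run is the 250 bases before a RefSeq start site on GRCm38.p6, on the strand of the gene, and capitals mark GCGTG or its reverse complement CACGC. The start site that a gene-level probe set reports is not known. For B4galnt2 the window is chr11:95914872-95915121 (minus strand), for B4galt1 chr4:40853985-40854234 (minus strand), for Gcnt2 chr13:40859518-40859767 (plus strand) and for St6gal1 chr16:23224490-23224739 (plus strand).
B4galnt2: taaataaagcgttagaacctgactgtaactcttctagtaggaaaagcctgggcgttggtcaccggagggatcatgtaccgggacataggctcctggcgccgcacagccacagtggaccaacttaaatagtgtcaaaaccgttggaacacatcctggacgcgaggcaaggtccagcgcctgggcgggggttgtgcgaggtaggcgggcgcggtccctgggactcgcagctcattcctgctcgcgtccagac
B4galt1: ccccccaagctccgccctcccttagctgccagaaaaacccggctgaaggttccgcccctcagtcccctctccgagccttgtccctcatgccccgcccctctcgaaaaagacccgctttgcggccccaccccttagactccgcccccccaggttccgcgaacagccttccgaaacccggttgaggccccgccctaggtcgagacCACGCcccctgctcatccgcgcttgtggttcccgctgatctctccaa
Gcnt2: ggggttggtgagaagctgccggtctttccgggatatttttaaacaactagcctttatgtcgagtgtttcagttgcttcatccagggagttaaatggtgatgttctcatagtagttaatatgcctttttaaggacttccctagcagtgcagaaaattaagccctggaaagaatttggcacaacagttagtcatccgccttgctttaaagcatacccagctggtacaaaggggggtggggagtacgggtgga
St6gal1: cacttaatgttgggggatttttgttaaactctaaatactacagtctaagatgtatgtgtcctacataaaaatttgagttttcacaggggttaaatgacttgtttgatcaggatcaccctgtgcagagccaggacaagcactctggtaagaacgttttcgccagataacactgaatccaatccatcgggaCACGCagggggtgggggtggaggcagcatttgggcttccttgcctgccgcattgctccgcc
Gcnt2 and St6gal1 each have 3 RefSeq start sites, and the first upstream window is printed for each. The B4galt1 window holds CACGC starting 47 bases before the start site, and the printed St6gal1 window holds it starting 61 bases before. Of the other St6gal1 windows, the second holds neither spelling and the third holds GCGTG starting 198 bases before its start site. The B4galnt2 window and all 3 Gcnt2 windows hold neither spelling. RefSeq windows were found for 68 of the members, 89 windows in all, so that some members count more than once. With 50 bases after the start included, GCGTG on either strand was in 39 of these windows (43.8%). The share was 32.4% of all 32851 RefSeq promoter windows. CACGTG was in 7 member windows (7.87%, against 7.15%) and TATAAA in 2 (2.25%, against 13.6%), both strands searched. A match is a description of the letters and not of binding.

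Of the 19 coding Galnt members, which start the chain, 10 were above the receptor level in all arrays. The other 9, Galnt9, Galnt13 to Galnt18, Galntl5 and Galntl6, were in none. None of the 19 was 1.5-fold higher in any comparison, and 1 was 1.5-fold lower. That member was Galnt7, an enzyme that extends glycosylation on peptides already carrying GalNAc, which read 10.25 in TNBS+I3C, 9.72 in TNBS+Vehicle, 10.37 in I3C and 10.42 in Vehicle. TNBS+Vehicle stood apart from the other arrays, 0.70 below Vehicle, and TNBS+I3C was 0.53 above TNBS+Vehicle.

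Galnt4, which can also act on peptides already glycosylated, was the brightest probe set of the role, at 12.08 in TNBS+I3C, 12.30 in TNBS+Vehicle, 11.81 in I3C and 11.75 in Vehicle. Its gene overlaps Poc1b, and how much of that signal comes from Poc1b was not tested. Galnt6 read 10.21 in TNBS+I3C, 9.67 in TNBS+Vehicle, 9.53 in I3C and 9.77 in Vehicle, with TNBS+I3C the highest array, 0.54 above TNBS+Vehicle. The noncoding Galnt6os, which overlaps it, read 6.44, 6.22, 6.48 and 6.18 in the same order and did not share that pattern of values. Galnt1, a widely expressed starter enzyme, was steady at 9.31, 9.44, 9.39 and 9.42 in the same order.

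Core 1 is made by C1galt1, whose folding needs the chaperone C1galt1c1 (Cosmc). C1galt1 read 11.98 in TNBS+I3C, 12.34 in TNBS+Vehicle, 11.70 in I3C and 11.66 in Vehicle. Both TNBS arrays were above both arrays without TNBS, and TNBS+Vehicle was 0.68 above Vehicle, or 0.43 after quantile normalization, which is under 1.5-fold. The chaperone read 7.47 in TNBS+I3C, 7.30 in TNBS+Vehicle, 6.95 in I3C and 7.33 in Vehicle, and TNBS+Vehicle and Vehicle differed by 0.03.

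The branching enzymes held the largest difference of the family. Gcnt2, the I-branching enzyme that turns linear poly-lactosamine into branched chains, read 5.78 in TNBS+I3C, 7.54 in TNBS+Vehicle, 5.84 in I3C and 5.66 in Vehicle. It was high in TNBS+Vehicle alone, 1.88 above Vehicle (3.68-fold), and TNBS+I3C was 1.76 below TNBS+Vehicle (3.39-fold). The other three arrays lay within 0.18 of each other, just above the receptor level. The neutrophil and proliferation lists were also highest in TNBS+Vehicle, and their part in this difference was not tested.

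Gcnt3, the mucosal enzyme that makes core 2, core 4 and I branches, was the brightest of this role. It read 12.90 in TNBS+I3C, 13.06 in TNBS+Vehicle, 12.11 in I3C and 12.30 in Vehicle. Here both TNBS arrays were the high ones, by 0.60 in TNBS+I3C and 0.76 in TNBS+Vehicle against Vehicle, and TNBS+I3C was 0.16 below TNBS+Vehicle. After quantile normalization the differences from Vehicle were 0.46 in TNBS+I3C and 0.55 in TNBS+Vehicle, both under 1.5-fold. Gcnt4, another core 2 enzyme, was dimmer, at 6.47 in TNBS+I3C, 6.92 in TNBS+Vehicle, 6.07 in I3C and 6.02 in Vehicle. Its order over the arrays was TNBS+Vehicle, TNBS+I3C and then the pair without TNBS, and TNBS+Vehicle was 0.90 above Vehicle.

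Gcnt7 ran the other way, with 5.93 in TNBS+I3C, 6.17 in TNBS+Vehicle, 6.61 in I3C and 6.43 in Vehicle, and its gene overlaps Rtf2. Gcnt1, the core 2 enzyme of leukocytes and many other cells, was at or near background throughout, between 5.04 and 5.50. B3gnt6, the core 3 synthase of the gut, was at 4.95 in TNBS+I3C, 4.08 in TNBS+Vehicle, 4.93 in I3C and 4.58 in Vehicle. All 4 of these values were below the receptor level, so its difference of 0.87 between TNBS+I3C and TNBS+Vehicle lies within the range of background signals.

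Of the 7 GlcNAc extension members, 4 were above the receptor level in at least 1 array and 1 passed 1.5-fold. B3gnt7, which lengthens chains for sulfated poly-lactosamine, read 7.13 in TNBS+I3C, 7.07 in TNBS+Vehicle, 7.61 in I3C and 7.01 in Vehicle. I3C was the high array, 0.60 above Vehicle, and the other three were within 0.12 of each other. B3gnt3, which extends core 1, was the brightest of the role and varied little, at 11.85 in TNBS+I3C, 11.85 in TNBS+Vehicle, 11.80 in I3C and 11.50 in Vehicle. B3gnt5, which starts the lacto-series chains of glycolipids, read 7.91 in TNBS+I3C, 7.62 in TNBS+Vehicle, 7.86 in I3C and 7.56 in Vehicle.

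Among the 12 galactosyltransferases, 8 were above the receptor level in at least 1 array. B4galt1, which adds galactose to GlcNAc in both N- and O-glycans, read 11.76 in TNBS+I3C, 12.56 in TNBS+Vehicle, 11.66 in I3C and 11.31 in Vehicle. TNBS+Vehicle was the high array, 1.25 above Vehicle (2.38-fold), or 1.03 after quantile normalization. TNBS+I3C was 0.80 below TNBS+Vehicle and 0.45 above Vehicle, and the I3C array was 0.35 above Vehicle.

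B4galt6, a lactosylceramide synthase, read 9.89 in TNBS+I3C, 10.15 in TNBS+Vehicle, 9.04 in I3C and 9.52 in Vehicle. The TNBS arrays were again both above the others, and TNBS+Vehicle was 0.63 above Vehicle, or 0.45 after quantile normalization. B4galt5, the other lactosylceramide synthase, did not follow this order, with 9.61 in TNBS+I3C, 9.53 in TNBS+Vehicle, 9.83 in I3C and 9.70 in Vehicle. B3galt4, which acts on gangliosides, read 5.77 in TNBS+I3C, 5.19 in TNBS+Vehicle, 5.24 in I3C and 5.82 in Vehicle. Since TNBS+Vehicle was below the receptor level, its difference from Vehicle is given as at least 0.39 lower.

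B3galt5, which makes type 1 chains in the gut, stayed between 6.61 and 6.89, with its lowest value in TNBS+Vehicle. B4galt3, B4galt4 and B4galt7, the last an enzyme of the proteoglycan linkage, differed by under 1.5-fold in every comparison. B3galt1, B3galt2, B3galt6 and B4galt2 were at or below the receptor level in all arrays.

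B4galnt2, which adds the GalNAc of the Sda antigen on sialylated chains and is prominent in the colon, had the highest signal of the whole family. It read 17.42 in TNBS+I3C, 16.10 in TNBS+Vehicle, 16.29 in I3C and 17.01 in Vehicle. TNBS+Vehicle and I3C were the low arrays, and TNBS+I3C and Vehicle the high ones. TNBS+Vehicle was 0.91 below Vehicle (1.88-fold) and I3C was 0.72 below Vehicle (1.65-fold), whereas TNBS+I3C was 1.32 above TNBS+Vehicle (2.50-fold) and 0.41 above Vehicle. The goblet list averaged 13.38 in TNBS+I3C, 12.38 in TNBS+Vehicle, 13.41 in I3C and 12.59 in Vehicle. At 1.5-fold, 3 of its genes were higher and 3 lower in TNBS+Vehicle than in Vehicle. Between TNBS+I3C and TNBS+Vehicle 3 were higher and 0 lower, and between I3C and Vehicle 6 were higher and 0 lower. The part of the goblet list in the B4galnt2 values was not tested.

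The other GalNAc enzymes moved less. B4galnt1, which makes the gangliosides GM2 and GD2, read 8.12 in TNBS+I3C, 7.85 in TNBS+Vehicle, 7.41 in I3C and 7.95 in Vehicle, and its gene overlaps Slc26a10. I3C was its low array, 0.54 below Vehicle, as it was one of the low arrays for B4galnt2. B4galnt3, which makes the LacdiNAc unit, read 8.06 in TNBS+I3C, 8.42 in TNBS+Vehicle, 8.40 in I3C and 8.36 in Vehicle. B4galnt4 was below the receptor level in all arrays.

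**Figure D5:**
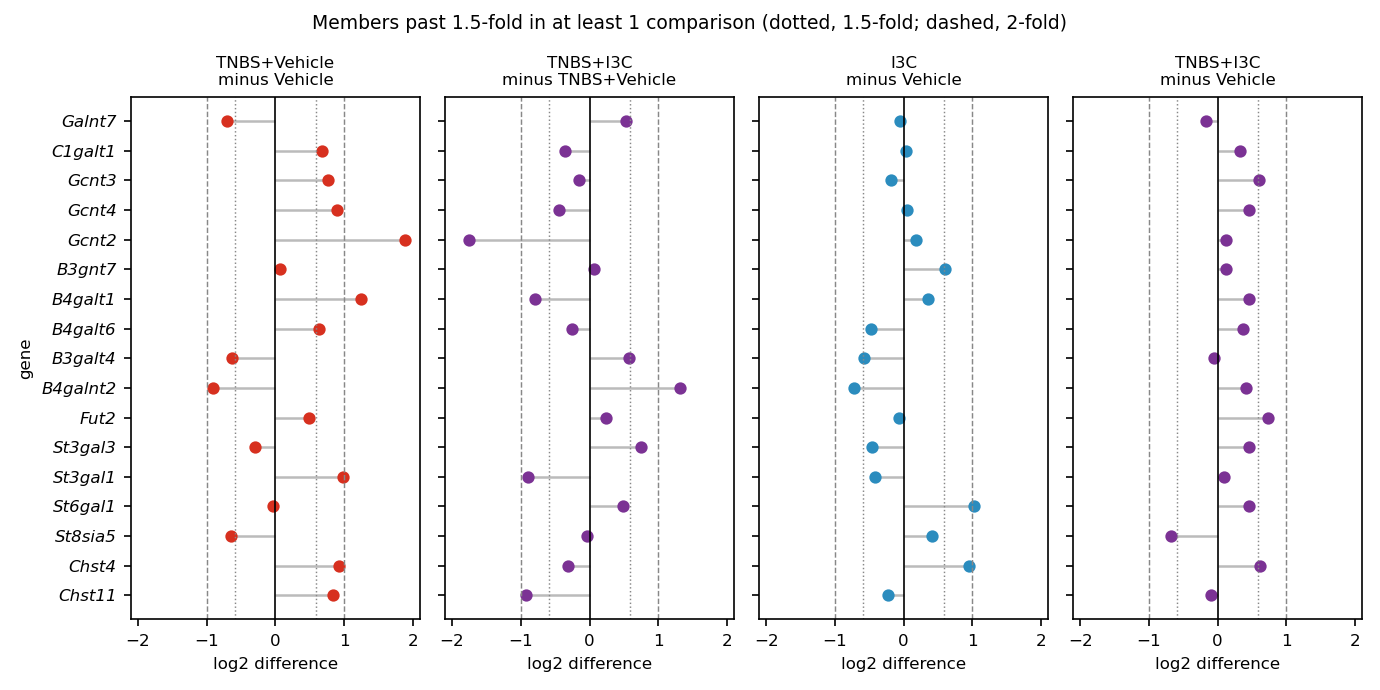
Log2 difference of the 17 members that passed 1.5-fold in at least 1 comparison and were above the receptor level in at least 1 of its arrays, with 1 panel per comparison and each difference taken between 2 arrays. Dotted and dashed lines mark 1.5-fold and 2-fold; Gcnt2 lies at 1.88 in TNBS+Vehicle minus Vehicle and at -1.76 in TNBS+I3C minus TNBS+Vehicle, where B4galnt2 lies at 1.32.

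Of the 7 coding fucosyltransferases, 4 were above the receptor level in all arrays and 3 (Fut1, Fut7 and Fut10) in none. Fut2, the secretor enzyme that places alpha-1,2 fucose on gut glycans, read 11.28 in TNBS+I3C, 11.04 in TNBS+Vehicle, 10.48 in I3C and 10.55 in Vehicle. Both TNBS arrays were above both arrays without TNBS, by 0.73 in TNBS+I3C (1.66-fold) and 0.49 in TNBS+Vehicle against Vehicle. With quantile normalization these differences were 0.62 in TNBS+I3C and 0.26 in TNBS+Vehicle.

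Fut4, an alpha-1,3 fucosyltransferase of Lewis x, read 8.54 in TNBS+I3C, 8.51 in TNBS+Vehicle, 8.53 in I3C and 8.13 in Vehicle, so that Vehicle alone was lower. The pseudogene Fut4-ps1, which may share its sequence, was between 3.04 and 3.66. Fut8, which adds the core fucose of N-glycans, read 9.82, 9.89, 9.89 and 9.58 in the same order of arrays. Fut9, another Lewis x enzyme, lay between 6.90 and 7.23. Fut7, which completes sialyl Lewis x on leukocytes, was between 4.97 and 5.31, below the receptor level in all arrays.

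Sialic acid in alpha-2,3 linkage is placed by St3gal enzymes, of which 4 of 6 were above the receptor level in at least 1 array. St3gal1, which caps core 1, read 7.05 in TNBS+I3C, 7.94 in TNBS+Vehicle, 6.54 in I3C and 6.96 in Vehicle. TNBS+Vehicle was the high array, 0.98 above Vehicle (1.97-fold), and TNBS+I3C was 0.89 below TNBS+Vehicle and 0.09 above Vehicle. I3C was 0.42 below Vehicle. C1galt1, which makes the core that St3gal1 caps, was also highest in TNBS+Vehicle.

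St3gal3, which acts on lactosamine chains, had another order, with 12.22 in TNBS+I3C, 11.47 in TNBS+Vehicle, 11.31 in I3C and 11.77 in Vehicle. As for B4galnt2, TNBS+I3C was highest, Vehicle next, and TNBS+Vehicle and I3C were the low arrays. TNBS+I3C was 0.75 above TNBS+Vehicle (1.68-fold). St3gal6, also an enzyme of lactosamine chains, read 8.97 in TNBS+I3C, 8.58 in TNBS+Vehicle, 9.23 in I3C and 8.97 in Vehicle, and its gene overlaps Dcbld2. St3gal4 was between 5.13 and 5.52 and above the receptor level in TNBS+Vehicle alone.

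St6gal1 places alpha-2,6 sialic acid on lactosamine, mostly of N-glycans. It read 7.11 in TNBS+I3C, 6.63 in TNBS+Vehicle, 7.68 in I3C and 6.66 in Vehicle. I3C was the high array, 1.02 above Vehicle (2.03-fold), TNBS+I3C lay between, 0.48 above TNBS+Vehicle, and TNBS+Vehicle and Vehicle differed by 0.03. It was higher with I3C both with TNBS and without. St6galnac2, which puts sialic acid on the first GalNAc of O-glycans, was steady between 6.88 and 7.13. St6gal2, St6galnac3 and St6galnac5 were below the receptor level throughout.

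Of the 6 St8sia members, which build chains of sialic acid and gangliosides, St8sia5 alone was above the receptor level. St8sia5, a ganglioside enzyme, read 6.08 in TNBS+I3C, 6.12 in TNBS+Vehicle, 7.17 in I3C and 6.76 in Vehicle. Both TNBS arrays were low. TNBS+I3C was 0.68 and TNBS+Vehicle 0.64 below Vehicle, and TNBS+I3C and TNBS+Vehicle differed by 0.04.

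Of the 7 sulfotransferase members grouped apart from those of chondroitin and dermatan sulfate, all but Chst4 were dim. Chst4, a GlcNAc 6-O-sulfotransferase, read 8.31 in TNBS+I3C, 8.62 in TNBS+Vehicle, 8.65 in I3C and 7.70 in Vehicle. Vehicle was the low array and the other three were above it, by 0.61 in TNBS+I3C, 0.92 in TNBS+Vehicle and 0.95 in I3C. Chst5, a GlcNAc 6-O-sulfotransferase known from the intestine, was between 2.94 and 3.27, below the receptor level.

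The enzymes of chondroitin and dermatan sulfate number 7, of which 4 were above the receptor level in at least 1 array. Chst11, a chondroitin 4-O-sulfotransferase, read 5.18 in TNBS+I3C, 6.11 in TNBS+Vehicle, 5.05 in I3C and 5.28 in Vehicle. It was above the receptor level in TNBS+Vehicle alone, at least 0.68 higher than Vehicle, and TNBS+I3C was at least 0.68 lower than TNBS+Vehicle. Chst12, of the same activity, was steady between 6.74 and 6.84. Chst15, which makes the disulfated chondroitin unit, lay between 5.68 and 5.98, and Chst13 between 5.17 and 5.69.

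The supply of activated sugars and sulfate was followed through lists of other genes. None of the 5 sialic acid supply genes was 1.5-fold higher or lower in either comparison of TNBS+Vehicle, and Nanp, a phosphatase of that route, was 0.66 higher in I3C than in Vehicle. Of the 5 fucose supply genes, Gmds, the first enzyme from GDP-mannose to GDP-fucose, passed 1.5-fold between TNBS+Vehicle and Vehicle, at 12.61 in TNBS+I3C, 12.96 in TNBS+Vehicle, 12.33 in I3C and 12.22 in Vehicle. Its order matched that of C1galt1 and Gcnt4, with both TNBS arrays high. None of the 3 measured galactose supply genes passed 1.5-fold. Of the 6 genes for GlcNAc and GalNAc supply, Gnpnat1, which acetylates glucosamine phosphate, was 0.80 higher in TNBS+I3C than in TNBS+Vehicle.

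Of the 5 sulfate donor genes, Papss2, which makes the sulfate donor PAPS, read 18.20 in TNBS+I3C, 17.68 in TNBS+Vehicle, 16.83 in I3C and 17.06 in Vehicle. TNBS+I3C was thus 1.14 above Vehicle. Slc26a2, a sulfate transporter, read 15.22 in TNBS+I3C, 14.37 in TNBS+Vehicle, 15.31 in I3C and 15.42 in Vehicle, with TNBS+Vehicle the low array by 1.05 against Vehicle. Of the 6 galactose 3-sulfotransferases, which use the same donor, 3 passed 1.5-fold upward between TNBS+I3C and TNBS+Vehicle (2.63% of coding genes did), 3 between I3C and Vehicle (1.26%) and 2 between TNBS+I3C and Vehicle (3.74%). Between TNBS+Vehicle and Vehicle, 2 of the 6 were 1.5-fold lower (2.7% of coding genes). Every gene in these counts was Gal3st2, Gal3st2b or Gal3st2c, and whether their probe sets share signal was not tested. Gal3st3 and Gal3st4 were below the receptor level in all arrays, and Gal3st1 stayed under 1.5-fold in every comparison. Gal3st2b read 10.30 in TNBS+I3C, 8.95 in TNBS+Vehicle, 11.48 in I3C and 9.63 in Vehicle.

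None of the 7 measured genes for N-glycan branching passed 1.5-fold in any comparison. Of 9 other terminal and linkage transferases, A4gnt, which adds the alpha-1,4 GlcNAc of gland mucins, read 6.30 in TNBS+I3C, 5.69 in TNBS+Vehicle, 6.09 in I3C and 5.38 in Vehicle. It was higher in I3C than in Vehicle by at least 0.66. A list of 7 transferases that take part in leukocyte selectin ligands was chosen from among the members. Of these 7, B4galt1 and C1galt1 were 1.5-fold higher in TNBS+Vehicle than in Vehicle, where 6.04% of coding genes were. C1galt1 passed only without quantile normalization (0.43 with it). None of the 7 was 1.5-fold lower, with Fut4 0.38 above Vehicle and St3gal6 0.39 below it. Fut7, Gcnt1 and St3gal4 were at or near background in TNBS+Vehicle. The part of leukocytes in these values was not tested.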

How the data were processed

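CEC RNA of 4 groups was hybridised to 1 array each, from pooled animals. The deposited values are log2 signals to 2 decimals, made by the authors with Transcriptome Analysis Console; for background correction, normalization and build the sources used here give no method. Of 65956 probe sets, 30638 carried 1 gene symbol in GEO's platform annotation, 2176 several and 33142 none. Symbols were updated through RefSeq, by gene number for 89 members and by symbol for 1. For a gene with several probe sets the highest mean was used. Differences of log2 signal between arrays were computed with Python 3.11.15, numpy 2.4.6 and pandas 2.3.3, without a test, and the computation was tested on simulated data. Counts past 2-fold and 1.5-fold were set beside those of 19050 coding genes. Named were members past 1.5-fold with a value above the receptor level in 1 of the arrays compared, the brightest of each role, and those near a threshold; others are given as dim, as steady or beside a relative. The members and lists were chosen with earlier results of these data known. Alternatives were quantile normalization, median centring, raising dim values to the receptor level, leaving out dim members, and thresholds of 1.5-fold and 3-fold. Raised values also give each difference written as at least a size. The number of arrays, 1 per group, limits the precision, and no replicate could be left out.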

Additional observations from a re-analysis of the deposited data

Results flagged for a closer look

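B4galnt2 was the member whose I3C difference ran opposite ways with and without TNBS, beyond 1.5-fold both times. TNBS+I3C was 1.32 above TNBS+Vehicle on the log2 scale, while the difference of I3C from Vehicle was -0.72. By the same 4 arrays, TNBS+I3C was 1.13 above I3C, while the difference of TNBS+Vehicle from Vehicle was -0.91. The gap between these differences was 2.04 either way, which is fixed by arithmetic because both ways combine the same 4 values. It rests on 1 array per group, and the difference was not tested. B3galt4 lay just outside this rule, at 0.58 with TNBS and -0.58 without, and passed it with median centring (0.61 and -0.6). With dim values raised its differences were 0.34 and -0.39. St3gal3 also ran opposite ways, at 0.75 with TNBS and -0.46 without, the latter under 1.5-fold.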

How the results depend on the processing

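At a 1.5-fold threshold the counts higher and lower were 9 and 4 for TNBS+Vehicle against Vehicle, 3 and 4 for TNBS+I3C against TNBS+Vehicle, 3 and 1 for I3C against Vehicle, and 3 and 1 for TNBS+I3C against Vehicle. At 3-fold the counts higher and lower were 1 and 0 for TNBS+Vehicle against Vehicle, and 0 and 1 for TNBS+I3C against TNBS+Vehicle. Gcnt2 was the member in both comparisons. The counts were 0 and 0 for I3C against Vehicle and for TNBS+I3C against Vehicle. The share of coding genes past 3-fold was not counted. With members at background left out, the median of TNBS+I3C against Vehicle was 0.155, in place of 0.055, and that of TNBS+Vehicle against Vehicle was 0.055, in place of -0.025. The coding medians were not taken under that filter. Among the 17 members that passed 1.5-fold and were above the receptor level in at least 1 of the arrays compared, which leaves out B3gnt6, 27 of 68 differences passed 1.5-fold. Of these, 21 still passed with quantile normalization, 26 with median centring and 26 with dim values raised, and none changed sign (alternatives chosen after seeing the data). Those lost were C1galt1, B4galt6, Gcnt3 and B3galt4 in TNBS+Vehicle against Vehicle and Gcnt3 and Chst4 in TNBS+I3C against Vehicle with quantile normalization, B3gnt7 in I3C against Vehicle with centring, and B3galt4 in TNBS+Vehicle against Vehicle with dim values raised. Quantile normalization moved the share of members higher to 51.1% in place of 42.0% for TNBS+Vehicle against Vehicle, and to 69.3% in place of 59.1% for TNBS+I3C against Vehicle. The median of all probe sets was 4.87 in TNBS+Vehicle and 4.99 in Vehicle, a shift of -0.12. The mean of all probe sets of a gene gave the same values, since each member has 1. No paired analysis was possible because each group has 1 array, and for the same reason no array could be left out. Differences of members near background are limited by signal over background.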
